A study of Homo sapiens with 4 samples.

Results

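A set of 10 oncofetal genes was followed in A2780s cells, an established human epithelial ovarian cancer (EOC) line. They were the LIN28 genes (LIN28B, LIN28A), the IGF2BP family (IGF2BP1, IGF2BP2, IGF2BP3), the HMGA genes (HMGA1, HMGA2) and the transcription factors SALL4, SOX2 and SOX11. The members were the genes with 1 of these 10 names among the 29117 gene names on the array, and 17 probes on 26 spots measured them. Total RNA of 4 clones was hybridized, each clone on an array of its own and with RNA of mock-transfected A2780s cells (Ctrl) in the other channel. The 2 GALNT3 KO clones carried a CRISPR/Cas9 disruption of GALNT3, an enzyme that starts mucin-type O-glycosylation. The other 2, labelled GALNT3/T6 KO, came from GALNT3 KO cells that also received a lentiviral shRNA against GALNT6, a close homolog of GALNT3. Each clone grew from selected cells, and the viral transduction with its selection cannot be told apart from the GALNT6 shRNA. By the labels the KO RNA carried Cy5 and the Ctrl RNA Cy3 on all 4 arrays, and the direction of every ratio below rests on these labels.

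The oncofetal genes are active in embryonic cells, largely silent in adult tissue and often active again in tumors. LIN28A and LIN28B are RNA-binding proteins that block the maturation of the let-7 microRNAs. Mature let-7 in turn represses messages that include HMGA2, the IGF2BP genes and LIN28B itself, so LIN28 and let-7 hold each other down. IGF2BP1, IGF2BP2 and IGF2BP3 bind messenger RNAs and regulate their stability, localization and translation. HMGA1 and HMGA2 are small chromatin proteins that bind and bend AT-rich DNA. SALL4 and SOX2 are transcription factors of pluripotent cells, and SOX11 acts in neural development.

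The let-7 sequences are shown because the seed, in capitals (bases 2 to 8), is the part that pairs with these messages. All 9 let-7 and miR-98 names in the RefSeq table shared this seed, and 3 of them are printed. Mature let-7 itself was not measured here.
hsa-let-7a-5p: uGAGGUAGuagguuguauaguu
hsa-let-7g-5p: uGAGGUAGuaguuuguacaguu
hsa-miR-98-5p: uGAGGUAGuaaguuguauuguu

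Of the 17 probes, 3 cover a stretch of genome longer than their 60 bases, so they bind across an exon junction of spliced RNA. They are shown because each gives a second reading of a gene that fell, at another place of its transcript than the brighter probe. Coordinates are those of the array files (hg19).
LIN28B probe, chr6:105406147-105474217: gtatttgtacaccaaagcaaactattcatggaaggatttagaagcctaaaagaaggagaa
HMGA2 probe, chr12:66232332-66357033: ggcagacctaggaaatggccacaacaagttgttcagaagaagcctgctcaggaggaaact
IGF2BP1 probe, chr17:47123382-47123679: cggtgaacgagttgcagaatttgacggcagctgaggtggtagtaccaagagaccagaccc

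The RefSeq promoter table (GRCh38.p14) held 5 of the 10 genes. The 250 bases before the start are printed for LIN28B, which fell, at both of its listed starts, and for SOX2, which rose. Capitals mark the GC box, searched as GGGCGG and its reverse complement CCGCCC on both strands, with overlapping matches counted. Of all 35116 promoters of this length, 42.6% hold a GC box.
LIN28B, first start, chr6:104940715-104940964, plus strand: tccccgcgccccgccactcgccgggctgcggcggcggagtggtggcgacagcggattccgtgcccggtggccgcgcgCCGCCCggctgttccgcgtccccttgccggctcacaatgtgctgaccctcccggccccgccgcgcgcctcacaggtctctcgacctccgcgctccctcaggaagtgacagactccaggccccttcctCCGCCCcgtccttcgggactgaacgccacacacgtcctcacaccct
LIN28B, second start, chr6:104956857-104957106, plus strand: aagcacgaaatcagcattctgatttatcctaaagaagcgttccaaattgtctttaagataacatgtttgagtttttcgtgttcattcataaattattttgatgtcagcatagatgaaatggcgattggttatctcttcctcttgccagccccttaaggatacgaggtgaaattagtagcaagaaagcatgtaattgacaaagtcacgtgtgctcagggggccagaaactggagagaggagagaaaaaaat
SOX2, chr3:181711675-181711924, plus strand: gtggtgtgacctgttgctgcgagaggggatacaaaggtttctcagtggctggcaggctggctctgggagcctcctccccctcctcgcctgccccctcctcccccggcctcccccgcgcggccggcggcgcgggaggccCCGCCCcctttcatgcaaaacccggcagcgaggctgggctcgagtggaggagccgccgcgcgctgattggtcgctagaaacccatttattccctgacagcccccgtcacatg

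The 2 starts of LIN28B differ in composition. The first held 33 CpG dinucleotides, a GC content of 73.6% and 2 GC boxes. The second held 6 CpG dinucleotides, a GC content of 38.4% and 0 GC boxes. The stretch before SOX2 held 20 CpG dinucleotides and 1 GC box, against a median of 11 CpG dinucleotides over all promoters in the table. The arrays did not show which start was used.

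The targeted genes were read first. GALNT3, measured by a single probe, stayed short of the scanner's background flag in both channels of the GALNT3 KO arrays, Ctrl included, so it checks nothing there. For the clones labelled GALNT3/T6 KO its log2 ratio was 4.80 and 5.08, with the KO channel above Ctrl, which goes against the label. GALNT6, the shRNA target, was lower there against Ctrl. Against GALNT3 KO, the cells that received the shRNA, its difference of -0.25 was not called (adjusted p = 0.211 from limma). The clones labelled GALNT3/T6 KO had been selected by Western blots, which were not analysed here. That group is therefore called the GALNT3/T6-labelled arrays throughout, and each direction drawn from it rests on that label. GALNT6 stood at -0.47 and -0.38 in GALNT3 KO (adjusted p = 0.0447 from limma) and at -0.66 and -0.69 on the GALNT3/T6-labelled arrays (adjusted p = 0.00335 from limma). The call in GALNT3 KO was lost with Agilent's log ratio (adjusted p = 0.145) and with median centring (adjusted p = 0.0937). With either GALNT3 KO array dropped, the fit was too weak to test it. Of 26 markers, 12 of 13 of EOC and all 8 of neural cells and leukocytes were well above background in the Ctrl channel of all 4 arrays, so this flag does not separate cell types. Between 86.9% and 93.8% of the spots were above background in a channel and 0 were saturated.

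A gene was called at an adjusted p of at most 0.05 in limma's fit over all 4 arrays and 27220 genes, with Benjamini-Hochberg adjustment. The test against Ctrl leaves out the spread of Ctrl itself, and the replicates are clones. Of the 10 members, 9 entered the fit. LIN28A was the exception, since its single probe was well above background in no channel of any array, and no level is given for it. All values below are log2 ratios of KO over Ctrl unless a signal is named.

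On the GALNT3/T6-labelled arrays, 5 of the 9 measured members fell against Ctrl, namely HMGA2, IGF2BP1, LIN28B, SALL4 and IGF2BP3. Over all genes tested, 23.1% were called lower there. One member, HMGA1, was called higher, against 24.8% of all genes. The other members called in neither direction were IGF2BP2, SOX2 and SOX11. The median over the 9 members was -0.999, against 0.03 over all genes tested. As the RNA came from bulk cultures, fewer cells that express a gene and less RNA per cell cannot be told apart.

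**Figure D1:**
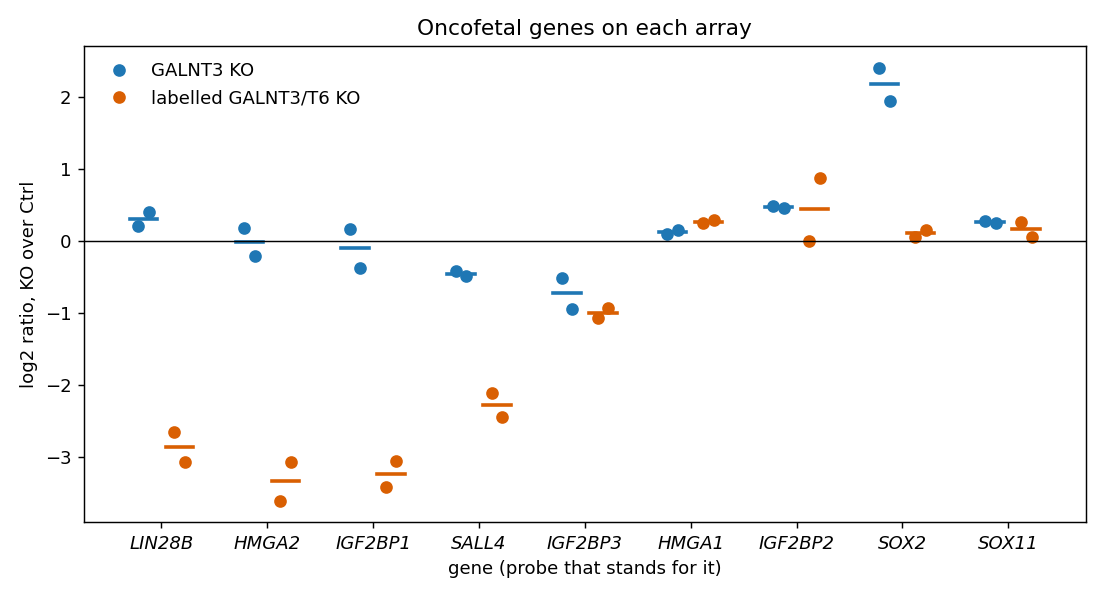
Log2 ratio of KO over Ctrl on each array (vertical axis) for the 9 measured genes, each by its brightest probe. Points are arrays, blue for GALNT3 KO and orange for the GALNT3/T6-labelled arrays, and lines are group means. LIN28B, HMGA2, IGF2BP1 and SALL4 lie below -2 on both orange arrays, and SOX2 lies above 1.9 on both blue arrays only.

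LIN28B, the blocker of let-7 maturation, was little different from Ctrl in GALNT3 KO and much lower on the other pair of arrays. Its brighter probe (chr6:105527927-105527986) read 0.21 and 0.40 on the GALNT3 KO arrays. It read -2.65 and -3.07 on the GALNT3/T6-labelled arrays. Both of the latter values lie far below both of the former. The group mean was -2.86 (SE 0.13, n = 2, adjusted p = 0.000259 from limma), a 7.26-fold lower level than Ctrl. In GALNT3 KO the mean was 0.31 (adjusted p = 0.172 from limma), with a 95% interval of -0.04 to 0.65. With that group fitted alone, LIN28B was called higher there (adjusted p = 0.0431), among 4604 of all genes tested. The second probe, the one across the exon junction, put the GALNT3 KO arrays at -0.40 and -0.14, the opposite sign. On the GALNT3/T6-labelled arrays it read -1.95 and -2.31. On the second of these arrays the KO channel fell short of the background flag, so that value is not exact. The fall was seen with both probes, and the sign in GALNT3 KO depended on the probe.

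The log2 signals of LIN28B give the same order. Ctrl lay between 10.3 and 10.6 on the 4 arrays, and the KO channel at 10.5 and 11.0 in GALNT3 KO. On the GALNT3/T6-labelled arrays it lay at 7.93 and 7.55. Ctrl and GALNT3 KO overlapped, while the third group overlapped neither. The 5 genes nearest to LIN28B in their 4 log2 ratios, by root mean square difference, were CCDC178 (0.12), MLIP (0.13), ENKD1 (0.14), GPC3 (0.15) and NAP1L5 (0.17). GPC3 is itself an oncofetal antigen.

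HMGA2, the chromatin protein and let-7 target, had the largest fall of the 9 members when each was read by its brightest probe. Its brighter probe (chr12:66359789-66359848) read 0.18 and -0.21 in GALNT3 KO, on either side of Ctrl. It read -3.60 and -3.07 on the GALNT3/T6-labelled arrays. The mean of -3.33 (SE 0.17, n = 2, adjusted p = 0.000329 from limma) is a 10.1-fold lower level. In GALNT3 KO the mean was -0.01 (adjusted p = 0.959 from limma), with an interval of -0.47 to 0.44. The probe across the exon junction also fell, but less, to -1.67 and -0.80. Its mean was -1.24 (adjusted p = 0.00927 from limma over single probes). With the mean of both probes the fall was -2.28, still called, and LIN28B then fell more, to -2.49. LIN28B also fell more with Agilent's log ratio (-3.53 against -3.50 for HMGA2), and IGF2BP1 with median centring (-3.49 against -3.31). The order of these genes thus depended on the processing.

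HMGA1, the other member of its family, moved little with its brighter probe (chr6:34213595-34213654). It read 0.09 and 0.15 in GALNT3 KO and 0.25 and 0.28 on the GALNT3/T6-labelled arrays, where the mean was 0.27 (SE 0.08, adjusted p = 0.0467 from limma). Of 15 alternatives, 11 ended the call. Among them were median centring, with a mean of 0.05 (adjusted p = 0.758), and leaving out any 1 of the 4 arrays, with adjusted p between 0.112 and 0.159. The dimmer HMGA1 probe (chr6:34208537-34208596) rose more, to 0.80 and 1.35, a mean of 1.08 (adjusted p = 0.00585 from limma over single probes). HMGA1 has processed copies in the genome, and the share of the signal they give is not known here.

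The IGF2BP family, which binds messenger RNAs, did not move as a block. IGF2BP1 fell, IGF2BP3 was lower in both groups and IGF2BP2 was not called in any comparison. The brighter IGF2BP1 probe (chr17:47132379-47132438) was spotted 10 times on each array, which gives its spread within an array. Over these spots GALNT3 KO 1 averaged 0.16 with an SD of 0.27, after 1 flagged spot had been dropped, and GALNT3 KO 2 averaged -0.38 with an SD of 0.27. The GALNT3/T6-labelled arrays averaged -3.42 (SD 0.28) and -3.05 (SD 0.29). On every one of their 20 spots the ratio lay below -2.7. The group mean was -3.23 (SE 0.17, n = 2, adjusted p = 0.000345 from limma), a 9.4-fold lower level. The IGF2BP1 probe across the exon junction read -1.16 and -0.93 there, a mean of -1.05 (adjusted p = 0.00206 from limma over single probes). With the mean of both probes IGF2BP1 stood at -2.14, so the size of the fall depends on the probe by more than 1.5 times.

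IGF2BP3 (chr7:23350769-23350828) read -0.51 and -0.94 in GALNT3 KO, and -1.07 and -0.93 on the GALNT3/T6-labelled arrays. It lay below Ctrl on all 4 arrays, and the groups overlapped. The mean in GALNT3 KO was -0.72 (SE 0.13, adjusted p = 0.0419 from limma) and in the other group -0.999 (SE 0.13, adjusted p = 0.00427 from limma). The GALNT3 KO value moved to -0.38 with Agilent's log ratio, where its call was lost (adjusted p = 0.156). The value was -0.94 without GALNT3 KO replicate 1 and -0.51 without replicate 2. With 1 array in the group those fits are too weak to test the call. With that group alone the adjusted p was 0.00258 from limma, and with the methods' t-test it was 0.396.

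IGF2BP2 (chr3:185362047-185362106) read 0.48 and 0.45 in GALNT3 KO, close together. On the GALNT3/T6-labelled arrays it read 0.00 and 0.87, so the clones of that group differed. The means were 0.47 (interval -0.10 to 1.03, adjusted p = 0.191 from limma) and 0.44 (adjusted p = 0.155 from limma). Without replicate 1 of the GALNT3/T6-labelled arrays the latter rested on the value of 0.87 alone. The spread in that fit comes from the GALNT3 KO pair only, so it cannot test this group. In GALNT3 KO the second IGF2BP2 probe (chr3:185362880-185362939) read 0.55 and -0.65. The probes of IGF2BP2 therefore disagreed on GALNT3 KO replicate 2.

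**Figure D2:**
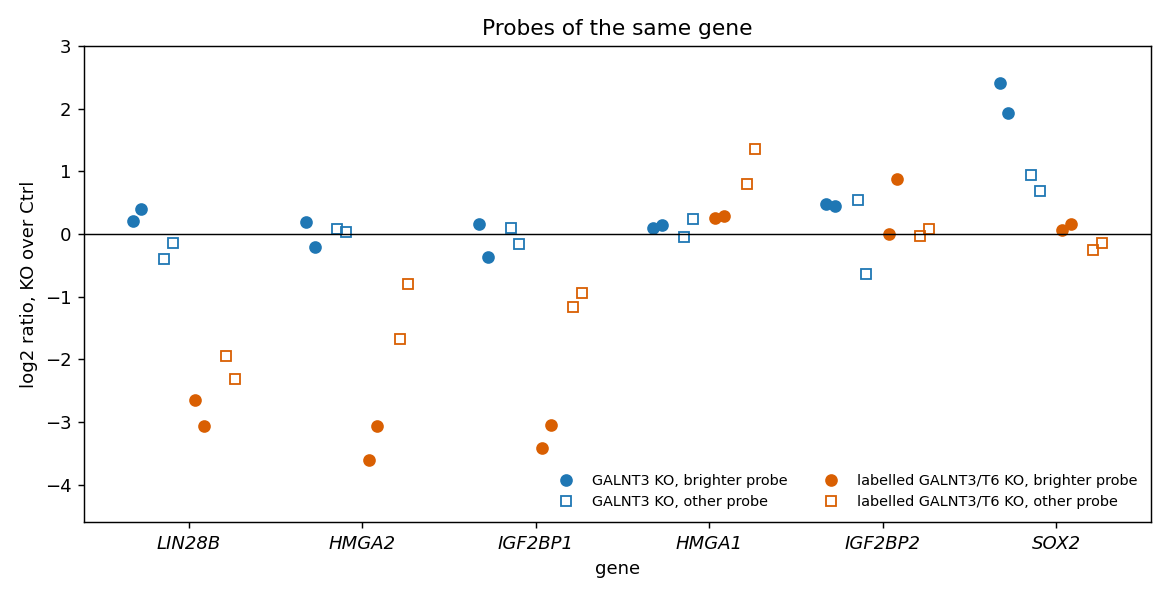
Log2 ratio of KO over Ctrl on each array (vertical axis) for the 6 genes with both probes tested. Filled circles are the brighter probe and open squares the other probe, blue for GALNT3 KO and orange for the GALNT3/T6-labelled arrays. The second probes of LIN28B, HMGA2 and IGF2BP1 fell less than the brighter ones, and the second HMGA1 probe rose more.

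SALL4, a zinc finger factor of pluripotent cells, fell in the same group. Its single probe (chr20:50400856-50400915) read -0.42 and -0.49 in GALNT3 KO. It read -2.11 and -2.44 on the GALNT3/T6-labelled arrays, below both. The mean there was -2.27 (SE 0.11, n = 2, adjusted p = 0.000283 from limma), a 4.83-fold lower level. In GALNT3 KO the mean of -0.46 did not pass the test (adjusted p = 0.0637 from limma), although its interval of -0.75 to -0.17 leaves out 0. It was called with median centring (-0.66) and when that group was fitted alone, a fit that called 4882 of all genes lower. Leaving out either of the GALNT3/T6-labelled arrays gave that same result, since the spread then comes from the GALNT3 KO pair only. SALL4 signals of Ctrl, GALNT3 KO and the third group did not overlap, in that order from high to low.

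SOX2 moved the other way from these genes, and in the other group. Its brighter probe (chr3:181431877-181431936) read 2.40 and 1.94 in GALNT3 KO. It read 0.06 and 0.16 on the GALNT3/T6-labelled arrays, next to Ctrl. The mean in GALNT3 KO was 2.17 (SE 0.13, n = 2, adjusted p = 0.00883 from limma), a 4.5-fold higher level, and 30 of the 27220 genes had a higher mean. The second probe (chr3:181430746-181430805) read 0.94 and 0.69 there, a mean of 0.82 (adjusted p = 0.0247 from limma over single probes). The brighter probe stood at 1.94 without GALNT3 KO replicate 1 and at 2.40 without replicate 2. With 1 array in the group those fits are too weak to test the call. It was kept in the 8 alternatives that changed the background correction, the normalization, the probes or the filter. SOX2 lies within the noncoding gene SOX2-OT on the same strand, so unspliced RNA of that gene would carry the same sequence.

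The log2 signal of SOX2 in Ctrl lay between 7.72 and 8.09. Against it stood 10.3 and 10.0 in GALNT3 KO, and 8.05 and 7.88 on the GALNT3/T6-labelled arrays. Ctrl and the latter overlapped, and GALNT3 KO lay above both. SOX11, the neural relative, read 0.27 and 0.25 in GALNT3 KO and 0.26 and 0.06 in the other group with its testable probe (chr2:5841428-5841487). Its means of 0.26 (adjusted p = 0.122 from limma) and 0.16 (adjusted p = 0.203 from limma) did not pass the test. The other SOX11 probe was well above background in 1 of 8 channels and was not tested.

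**Figure D3:**
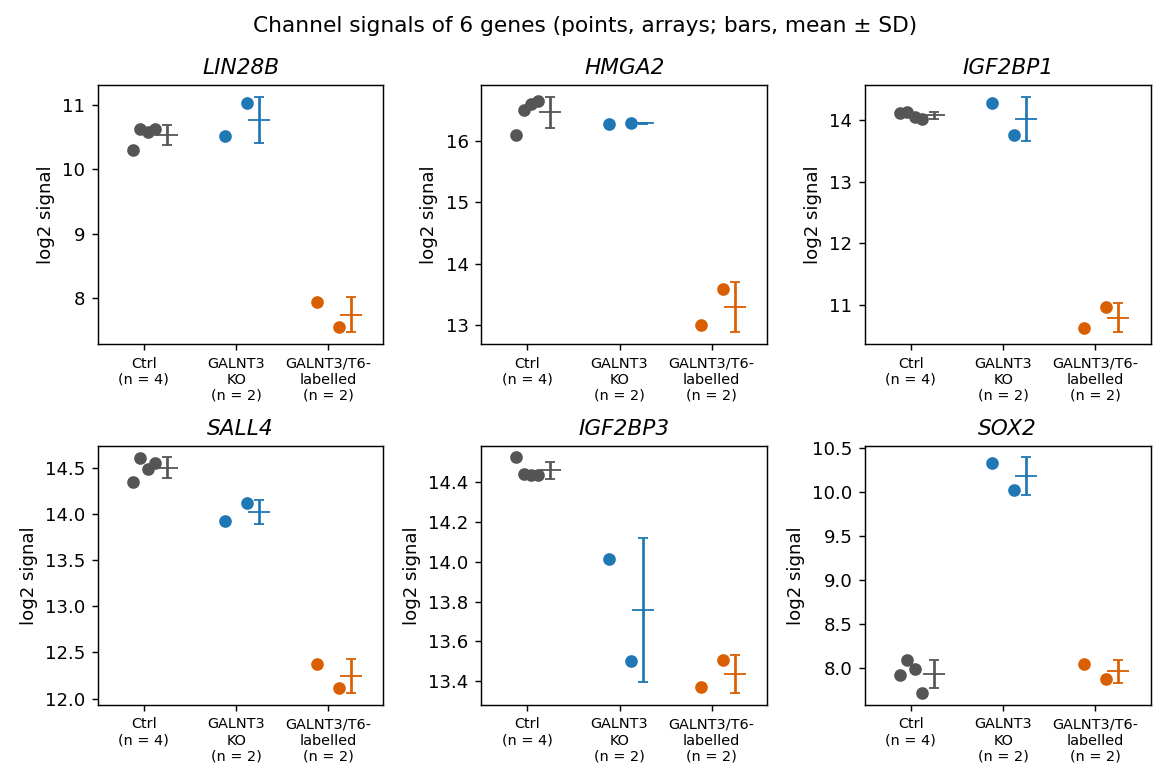
Log2 signal of the Ctrl channel (grey, 4 arrays) and of the KO channel in GALNT3 KO (blue, 2 arrays) and on the GALNT3/T6-labelled arrays (orange, 2 arrays) for 6 genes. Points are arrays and bars the mean with SD, and each panel has its own vertical axis. LIN28B, HMGA2 and IGF2BP1 separate the orange arrays from both other groups, and SOX2 separates the blue arrays.

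In GALNT3 KO as a whole, 1 of 9 members was called higher and 1 lower, against 4.69% and 6.35% of all genes tested. Of all genes called in that comparison 42.5% were higher, against 23.5% with median centring. The median over the members was 0.12, against 0.02 over all genes. The count of 2 members cannot be tested by leaving out a GALNT3 KO array. It was 0 without GALNT3 KO replicate 1 and 0 without replicate 2. In those fits limma called 0 of all genes tested, with 4694 and 3248 at an unadjusted p of at most 0.05. With the GALNT3 KO group fitted alone the count was 5, with LIN28B, IGF2BP2 and SALL4 added. Calls over all genes rose as well in that fit, from 1276 higher and 1728 lower to 4604 and 4882. The added calls are therefore not particular to these members.

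Set against each other, the groups differed in 5 of the 9 members. All 5 were lower, and 0 higher (0 at an unadjusted p of at most 0.05 in limma), on the GALNT3/T6-labelled arrays, where 11.9% of all genes were called lower and 11.8% higher. Both groups were measured against Ctrl in the other channel, and the methods name corresponding Ctrl clones. Whether the groups shared the same Ctrl was not tested. The difference rests on these ratios. It was -3.32 for HMGA2 (SE 0.24, adjusted p = 0.00165 from limma), -3.17 for LIN28B (SE 0.19, adjusted p = 0.001) and -3.13 for IGF2BP1 (SE 0.24, adjusted p = 0.00192). For SOX2 the difference was -2.06 (SE 0.19, adjusted p = 0.0031 from limma). In the GALNT3/T6-labelled group SOX2 had a mean of 0.11 against Ctrl (interval -0.25 to 0.46, adjusted p = 0.546 from limma). For SALL4 it was -1.81 (SE 0.16, adjusted p = 0.00255 from limma), and it missed the threshold when GALNT3 KO replicate 1 (-1.78, adjusted p = 0.0618) or replicate 2 (-1.85, adjusted p = 0.0563) was left out. The intervals of the other members, by brightest probe, ran from -0.15 to 0.44 for HMGA1 and from -0.83 to 0.77 for IGF2BP2. They ran from -0.76 to 0.21 for IGF2BP3 and from -0.43 to 0.24 for SOX11. The dimmer HMGA1 probe differed by 0.98 between the groups (adjusted p = 0.0378 from limma over single probes). With the mean of both HMGA1 probes the difference was 0.56, not called (adjusted p = 0.0549 from limma). The median over the members was -1.81, against -0.0037 over all genes.

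Of 13 markers of EOC, 8 rose on the GALNT3/T6-labelled arrays, where LIN28B, HMGA2, IGF2BP1 and SALL4 fell, against 24.8% of all genes called higher. The rise was largest for the keratins KRT18 (5.68) and KRT19 (4.81), and MUC16, EPCAM, ESR1, CLDN3 and CLDN4 were not called. In GALNT3 KO limma called 0 of the 13, with 2 higher at an unadjusted p of at most 0.05, against 5044 of all 27220 genes. The markers were also compared by signal. Their summed signal, in which the brightest probes weigh most, lay between 893798 and 951996 in the KO channel of the GALNT3/T6-labelled arrays, between 11927 and 14157 in the KO channel of GALNT3 KO, and between 10368 and 48889 in Ctrl. Of 6 neural markers, ELAVL4 rose and NES, a neural progenitor marker, fell in the same group. Of 3 fibroblast markers, PDGFRB rose there and LUM fell in both groups, and of 2 leukocyte markers CD3E fell. Their part in the values of the oncofetal genes was not tested.

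For the gene lists that follow, the shares of all genes called higher and lower were 24.8% and 23.1% on the GALNT3/T6-labelled arrays, 4.69% and 6.35% in GALNT3 KO, and 11.8% and 11.9% between the groups. Around LIN28 and let-7, 9 of 17 genes of microRNA processing fell on the GALNT3/T6-labelled arrays, against 23.1% of all genes, and 1 rose, against 24.8%, with a median of -0.66 against 0.03 over all genes. DHX9, a helicase, stood at -2.35 (adjusted p = 0.00465 from limma), or -1.65 with the mean of its probes. DICER1, which cuts microRNA precursors, stood at -1.19 (adjusted p = 0.00562 from limma), or -0.80 with the mean of its probes. KHSRP, a binder of let-7 precursors, stood at -1.18 (adjusted p = 0.0177 from limma), or -0.74 without replicate 1 of that group. Its call was lost with median centring (adjusted p = 0.0542 from limma) and with that group fitted alone (adjusted p = 0.0606 from limma). Calls over all genes fell as well in that last fit, from 6740 higher and 6282 lower to 3998 and 4346. In GALNT3 KO 1 gene fell, AGO2, the slicing Argonaute, at -0.74 (adjusted p = 0.0477 from limma). The groups differed in 2 of these genes, both lower.

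Of 28 let-7 targets outside the members, 5 rose and 13 fell on the GALNT3/T6-labelled arrays, against 24.8% and 23.1% of all genes, with a median of -0.17. CDK6, a cell cycle kinase, stood at 4.53 (adjusted p = 0.000359 from limma), or 2.57 with the mean of all its probes. TRIM71, a stem cell regulator, stood at -3.11 (adjusted p = 0.000141 from limma), and HIC2, a transcriptional repressor, at -2.82 (adjusted p = 0.000305 from limma), or -1.41 with the mean of its probes. In GALNT3 KO 1 target rose and 4 fell. CDK6 stood at 1.73 there (adjusted p = 0.0305 from limma), or 0.83 with the mean of its probes, where the call was lost (adjusted p = 0.0515). IGF1R, the receptor of IGF1, stood at -1.39 (adjusted p = 0.0467 from limma), or -0.45 with the mean of its probes, also not called (adjusted p = 0.0886). Between the groups 4 targets were higher and 7 lower on the GALNT3/T6-labelled arrays.

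Of 20 other genes of pluripotency 15 were measured, and 4 rose and 1 fell on the GALNT3/T6-labelled arrays, against 24.8% and 23.1% of all genes, with a median of 0.23. NANOG, which has near-identical copies in the genome, stood at -0.61 (adjusted p = 0.0299 from limma), or -0.33 without replicate 2 of that group. Its call was lost with the GALNT3/T6-labelled group fitted alone (adjusted p = 0.0993 from limma), a fit with fewer calls over all genes as well. LEFTY2 stood at 0.43 (adjusted p = 0.0121 from limma) and LEFTY1, its neighbour in sequence, at 0.40 (adjusted p = 0.0151 from limma). With Agilent's log ratio both LEFTY genes missed the threshold (adjusted p = 0.124 and 0.0557), and the list then had 0 genes called higher. In GALNT3 KO, where SOX2 rose, limma called 0 of the 15, with 6 higher and 1 lower at an unadjusted p of at most 0.05. Over all 27220 genes 5044 were higher and 4632 lower at that p. By the methods' t-test 2 of the 15 passed it, against 3998 of all genes. With that group fitted alone, 3 were called higher and 1 lower, against 4604 and 4882 of all genes. Between the groups limma called 0, with 1 lower at an unadjusted p of at most 0.05, against 4973 of all genes.

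Of 19 other SOX and SALL genes measured, 3 rose and 6 fell on the GALNT3/T6-labelled arrays, against 24.8% and 23.1% of all genes, with a median of -0.03. SOX4 stood at -1.76 (adjusted p = 0.0133 from limma), or -1.07 without replicate 1 of that group. SALL2, a relative of SALL4, stood at -1.38 (adjusted p = 0.0111 from limma), or -0.88 without that array. Both calls were lost with the GALNT3/T6-labelled group fitted alone, at an adjusted p of 0.0634 and 0.0573 from limma. Calls over all genes fell in that fit too, from 6740 higher and 6282 lower to 3998 and 4346. SOX8 stood at 1.00 in GALNT3 KO (adjusted p = 0.0438 from limma) and at -1.29 in the other group (adjusted p = 0.00577 from limma), and the groups differed by -2.29 (adjusted p = 0.00564 from limma). With the mean of its probes SOX8 stood at 0.46, not called (adjusted p = 0.06), and at -0.62. SOX18 stood at -0.52 in GALNT3 KO (adjusted p = 0.0396 from limma), or -0.16 with Agilent's log ratio, where it was not called (adjusted p = 0.385).

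Among 12 messages known to be bound by IGF2BP proteins, 3 rose and 4 fell on the GALNT3/T6-labelled arrays, against 24.8% and 23.1% of all genes. CD44, a cell surface receptor, stood at 5.46 (adjusted p = 9.19e-05 from limma) and GLI1, a Hedgehog effector, at -3.66 (adjusted p = 0.000119 from limma). The median was 0.11. In GALNT3 KO limma called 0 of the 12, with 1 higher and 2 lower at an unadjusted p of at most 0.05. Over all 27220 genes 5044 were higher and 4632 lower at that p.

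Of 12 other oncofetal antigens measured, 6 rose and 1 fell on the GALNT3/T6-labelled arrays, against 24.8% and 23.1% of all genes, with a median of 0.34. The one that fell was GPC3, a glypican of fetal liver, at -2.86 (adjusted p = 0.00014 from limma). ROR1, a receptor kinase of the embryo, stood at 1.69 (adjusted p = 0.00125 from limma), or 2.63 with the mean of its probes, and TPBG, the trophoblast glycoprotein, at 1.42 (adjusted p = 0.00352 from limma), or 0.57. In GALNT3 KO 2 rose, ROR2 at 0.90 (adjusted p = 0.0464 from limma) and CEACAM6 at 0.62 (adjusted p = 0.0356 from limma). ROR2 stood at 0.50 and CEACAM6 at 0.30 with the mean of their probes, where CEACAM6 was not called (adjusted p = 0.105). Of the 7 genes of these lists named for a call in GALNT3 KO, all lost it with the replicate block. That fit called 30 of all genes higher and 52 lower there, so the loss is not particular to these 7. Fits with either array of that group left out are too weak to test the calls. All of the 7 except CDK6 also lost the call with Agilent's log ratio.

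**Figure D4:**
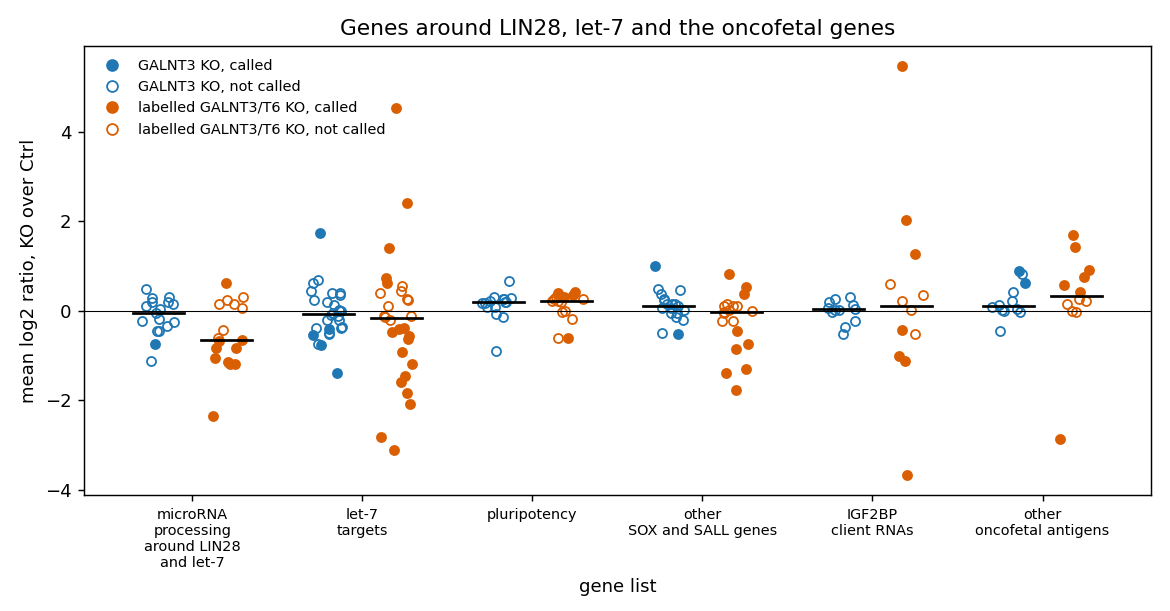
Mean log2 ratio of KO over Ctrl (vertical axis) of each measured gene in 6 gene lists, blue for GALNT3 KO and orange for the GALNT3/T6-labelled arrays. Filled points were called at an adjusted p of at most 0.05 and black lines are list medians. The microRNA processing list has the lowest orange median, at -0.66, and every list holds genes on both sides of 0.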

How the data were processed

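The authors hybridized cRNA of 4 KO clones and of Ctrl to 2-color Agilent whole genome arrays, all on 1 slide. The deposited intensity values are spot signals from Agilent Feature Extraction (version 10.7.3.1 per the file headers, 8.5.1.1 per the labels). The deposited value table holds log10 ratios of red over green, used as an alternative. The methods speak of a reverse-color label of Ctrl cRNA, while the labels give no dye swap.

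Mean signals were corrected with normexp (offset 50) and normalized by loess within each array in limma 3.58.1 (R 4.3.3), giving log2 ratios of KO over Ctrl. Control spots and outlier spots were left out. Each array held 45015 spots, 1639 of them controls. The brightest probe stood for a gene, chosen from probes that passed the scanner's background flag, on both arrays of a group, in 1 channel or both. Symbols were updated through the RefSeq tables. limma fitted all 4 arrays with a mean for each group. Signals per channel followed Aquantile normalization. The 2 arrays a group limit the precision. The offset shrinks ratios of dim probes.

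The members and lists were chosen with earlier results of these data known. Every member is named. Of each list the 3 genes with the largest ratio on the GALNT3/T6-labelled arrays among those called there, and the 2 in GALNT3 KO, are named. One such gene is not reported here. Alternatives changed background correction, normalization, probe choice, filter, arrays and test. The plain t-test takes only the gene's own spread, and against Ctrl only that of the ratios within the group. The paper names t-tests for its functional assays and no test for the arrays.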

Additional observations from a re-analysis of the deposited data

Results flagged for a closer look

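The ratio of KO over Ctrl differed between the groups, by limma's test of the difference, in 5 of the 9 measured oncofetal genes. The log2 difference of the GALNT3/T6-labelled arrays minus GALNT3 KO was -3.32 for HMGA2, -3.17 for LIN28B, -3.13 for IGF2BP1, -2.06 for SOX2 and -1.81 for SALL4.

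In the Ctrl channel 1 array stood apart from the other 3 for 2 of 9 genes, and chance flags about 1 in 20. The gap was 0.885 of the range for LIN28B, where the lowest log2 signal of 10.3 came from the array of GALNT3 KO replicate 1. It was 0.941 of the range for IGF2BP3, where the highest signal of 14.5 came from the same array.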

How the results depend on the processing

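The 9 measured genes gave 396 recomputed values in 3 comparisons, of which 343 kept direction and side of the threshold. None of the 13 calls changed sign. Members called in GALNT3 KO numbered 2, but 1 with Agilent's log ratio and with the deposited value table. They numbered 5 with each group alone and 0 with the plain t-test. Over all genes the calls there moved too, from 1276 higher and 1728 lower to 199 and 394 with Agilent's log ratio. With each group alone they were 4604 and 4882. The 396 values include fits with an array left out, which leave 1 array in a group. Their numbers of called members are not given in this paragraph. On the GALNT3/T6-labelled arrays the 6 calls became 0 with the plain t-test, and the 5 differences also became 0. Over all genes that t-test called 0 in either comparison with Ctrl, and 24 higher and 10 lower between the groups. Its loss of calls is therefore not particular to the members. At the study's criterion of p and fold that t-test gave 0, 4 and 5 members. The paper states this criterion without naming the test behind its p. At an unadjusted p of at most 0.05, without the fold, it took in 3998, 5684 and 6766 of all 27220 genes.

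With the replicate block 0 members were called in GALNT3 KO, where SOX2 (adjusted p = 0.0505 from limma) and IGF2BP3 (adjusted p = 0.11) lost their calls, and 5 on the GALNT3/T6-labelled arrays, where HMGA1 lost its call (adjusted p = 0.118). The block leaves 1 residual degree of freedom. Over all genes it called 30 higher and 52 lower in GALNT3 KO, and 4961 and 5151 on the GALNT3/T6-labelled arrays. The 5 differences stayed called under the block, with 2537 of all genes higher and 2218 lower. Same-numbered arrays deviated against each other (correlation -0.24), so the numbers are not shown to pair the clones. Chosen after seeing the data, the crossed pairing called 2, 5 and 5 members. Over all genes it called 1485 higher and 2254 lower, 6917 and 6649, and 3540 and 3786.

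Values that changed sign had not been called. In GALNT3 KO with 1 of its arrays left out, IGF2BP1 ran from -0.38 to 0.16 and HMGA2 from -0.21 to 0.18. With median centring HMGA1 moved to -0.16 and HMGA2 to 0.13 there. With the mean of all probes HMGA2 moved to 0.0189 in GALNT3 KO, SOX2 to -0.0464 on the GALNT3/T6-labelled arrays and the IGF2BP2 difference to 0.0195. With 1 of the GALNT3/T6-labelled arrays left out, that difference ran from -0.46 to 0.40 and the SOX11 difference from -0.20 to 0.0009. For these changes the cause was not tested. Of 528 recomputed counts over the gene lists, 159 moved by more than 1.5 times. The number of arrays limits all tests.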
